A study of Homo sapiens with 18 samples.

Results

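Cerebral organoids of the human embryonic stem cell line H1 that had received dopamine daily were compared with H1 organoids that had received the vehicle alone. The comparison holds 6 of the 18 libraries of the series, chosen by the line and treatment in the labels. Chronic libraries are numbered 1, 2 and 3, and control libraries 7, 8 and 9. The organoids were made by a ventral forebrain protocol, in which the morphogen SHH (100 ng/mL) and purmorphamine (1 µM), an agonist of the hedgehog pathway, were given after day 10, and maturation medium with vitamin A from day 18. On day 83 both groups were treated. Chronic organoids had 1 µM dopamine in 100 µM ascorbic acid every day for 1 week and a last dose for 1 hour. Control organoids had 100 µM ascorbic acid without dopamine over the same week and for the last hour. Ascorbic acid, an antioxidant that keeps dopamine from oxidising, was therefore in both groups. The series title places reactive oxygen species between dopamine and its transcriptional effects, and the comparison asks what repeated dopamine changed in H1 organoids. Both groups come from 1 line, and whether its 3 libraries per group stem from separate organoid cultures is unstated in the labels. All p-values below therefore rest on variation among libraries that may be technical in origin.

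GABAergic neurons of the forebrain are born in the ventral telencephalon, or subpallium, where DLX homeobox factors act above GAD1 and GAD2, the enzymes that make the inhibitory transmitter GABA. Excitatory neurons of the cortex are born in the dorsal telencephalon through the factors EMX1, NEUROG2, EOMES and TBR1. Hedgehog signals favour ventral fates, while Wnt and BMP signals favour dorsal ones and the choroid plexus. Dopamine acts through G protein-coupled receptors encoded by DRD1 to DRD5, and it is also a precursor of neuromelanin and can form reactive quinones. Melanin of pigment cells is made by tyrosinase and related enzymes.

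Poly(A) RNA was sequenced in bulk, so fewer cells of a type and less RNA per cell cannot be told apart in any value below. The 5 libraries 1, 2, 3, 7 and 8 held 13647204 to 19648836 counts, and 3 counts in them correspond to 0.153 to 0.22 CPM (counts scaled to a common library size). Control library 9 held 43284 counts in 5383 genes, and 3 counts in it correspond to 69.3 CPM. Group means and the main test therefore rest on chronic libraries 1, 2 and 3 (n = 3) and control libraries 7 and 8 (n = 2), and library 9 was added back as a check. The controls also differed from each other: the summed level of 15 blood genes was 0.0573 CPM in library 7 and 10.9 CPM in library 8, against 0.165, 0.29 and 3.04 CPM in the chronic libraries. The summed level of 12 gut epithelium genes was 12.5 CPM in library 7 and 5.86 CPM in library 8, against 8.98 to 9.81 CPM in the chronic libraries. In library 9 the gut genes had 22 counts (385.7 CPM, 95% Poisson interval 241.7 to 584) and the blood genes 1 count. Whether these transcripts bear on any gene below was not tested, and counts are also given without control library 8. Markers of the telencephalon were present in both groups, with EMX1 and TBR1 at the levels given below. The ventral label held less well, as NKX2-1, a factor of the most ventral telencephalon and hypothalamus, was at 0.0573 CPM and 0 in control libraries 7 and 8 and at 0.165, 0.29 and 1.03 CPM in the chronic libraries.

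Among the lists of ventral forebrain, GABAergic, pigment and glial genes more members were higher than lower in chronic libraries, and among those of dorsal forebrain and cortical excitatory neurons more were lower. Of 15708 genes tested, 470 were higher and 299 lower in the chronic libraries (quasi-likelihood F test of edgeR, p under 0.05 after Benjamini-Hochberg adjustment), which is 2.99% higher, 1.9% lower and 4.9% in either direction. The genes that rose did so by more: their median change was 2.14-fold, with 253 above 2-fold, 108 above 4-fold and 27 above 8-fold. The genes that fell had a median change of 1.43-fold, with 15 above 2-fold and 2 above 4-fold. They were also the more abundant ones, with a median level of 75.2 CPM against 10.2 CPM for the genes that rose. The median log2 fold change of all genes was 0.004. In 20.3% of tested genes all chronic libraries lay above both controls, and in 19% all lay below them. Such a separation, stated for many genes below, is therefore common with so few libraries.

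**Figure D1:**
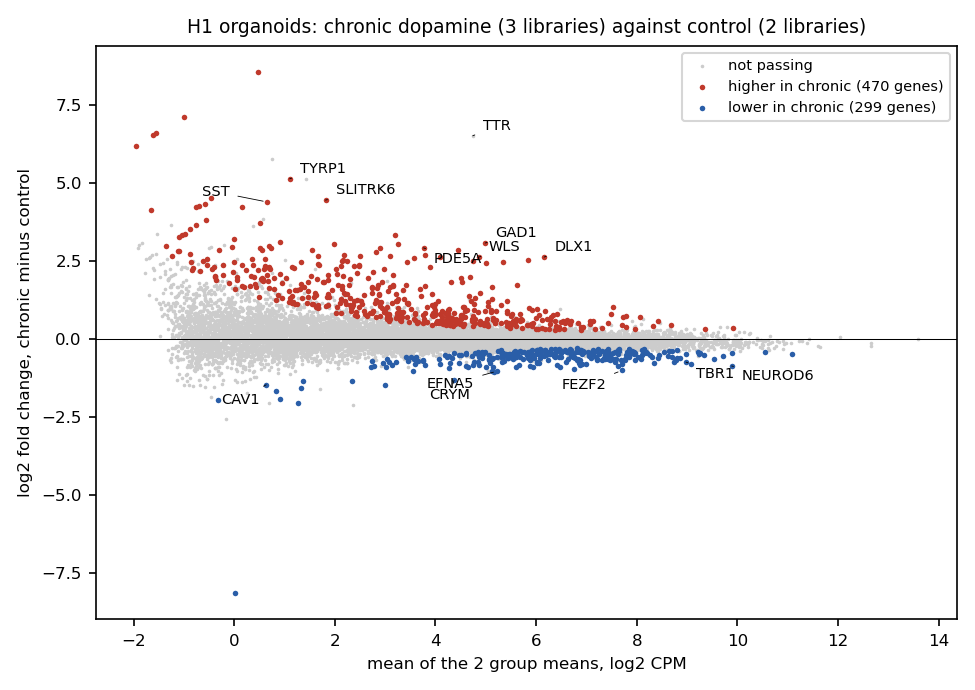
Log2 fold change of each tested gene (chronic minus control, edgeR) against its mean level (log2 CPM of the mean of both group means). Red points are the 470 genes higher and blue points the 299 genes lower in chronic libraries, and grey points did not pass. The red points spread far upwards at low levels, while nearly all blue points lie close below 0 at high levels. TTR is labelled although it did not pass.

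The size of this response depended on which controls entered. With library 9 kept, 332 of 15322 genes were higher (2.17%) and 38 lower (0.248%), together 2.41%. Of the genes called with 5 libraries, 299 of the 470 higher ones and 38 of the 299 lower ones then passed, and 460 of the 460 still tested and 281 of the 298 still tested had the same direction. Without control library 8, 94 genes were higher (0.577%) and 50 lower (0.307%), together 0.884%. Without control library 7, 812 were higher (4.97%) and 778 lower (4.76%), together 9.74%. These fits have a single control, which is assumed to vary as the chronic libraries do. In 1 fit of all 18 libraries of the series, which share a spread with another line, 229 were higher (1.33%) and 15 lower (0.0873%), together 1.42%.

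Library 9 bears on the genes that fell more than on those that rose. The genes that rose summed to 18533, 15938 and 16295 CPM in the chronic libraries and 11030 and 10035 CPM in control libraries 7 and 8, and to 5400 CPM in library 9 (95% Poisson interval 4813.7 to 6038, counting error only). The genes that fell summed to 33317, 35457 and 34502 CPM in the chronic libraries and 46392 and 52332 CPM in control libraries 7 and 8, and to 27544 CPM in library 9 (26198 to 28940). Library 9 was thus low for both sets, and 398 of the 470 and 157 of the 299 genes had no count in it. The ratio of the summed levels, genes that rose over genes that fell, was 0.556, 0.45 and 0.472 in the chronic libraries, 0.238 and 0.192 in control libraries 7 and 8 and 0.196 in library 9. By this ratio library 9 lay with the other controls, although the sets were chosen on libraries that include 7 and 8. By the summed level of the genes that fell, library 9 lay below every chronic library and furthest from controls 7 and 8. The ratio alone therefore cannot show that library 9 resembled them. Of the genes named here that passed with 5 libraries, 96 of 154 passed with library 9 kept, and 60 of 160 passed without control library 8. The value of SYT1, ZBTB18 and ZEB2, which fell, turned positive with library 9 kept.

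Transcription factors of the subpallium and its interneurons made up the group with the most members that rose. Of 26 tested members of the list of subpallial and interneuron transcription factors, 19 rose and 3 fell, with a median log2 fold change of 1.25, against 2.99% and 1.9% of all genes. Keeping library 9 gave 15 and 0, and leaving out control library 8 gave 13 and 1. DLX1, a homeobox factor of the ventral telencephalon, was at 162, 92.4 and 115 CPM in the chronic libraries and 32.1 and 7.91 CPM in the controls (log2 fold change 2.64 ± 0.43 SE, adjusted p = 0.00875). All chronic libraries lay above both controls, as in 20.3% of tested genes. Chronic library 1 was the highest and control library 8 the lowest. DLX2, its neighbour on chromosome 2, was at 92.4, 51.6 and 60.9 CPM in the chronic libraries and 17.8 and 6.75 CPM in the controls (log2 fold change 2.49 ± 0.35 SE, adjusted p = 0.00425). DLX5 was at 72.1, 41.1 and 49.5 CPM in the chronic libraries and 15.3 and 5.03 CPM in the controls (log2 fold change 2.43 ± 0.37 SE, adjusted p = 0.00637) and DLX6, its neighbour on chromosome 7, at 21.2, 12 and 17.7 CPM in the chronic libraries and 3.32 and 0.89 CPM in the controls (log2 fold change 3.04 ± 0.39 SE, adjusted p = 0.00327). The order of the libraries was the same in all 4 DLX genes: chronic 1, then 3, then 2, then control 7, then control 8. DLX6-AS1, a long RNA antisense to DLX6, rose by 2.53 ± 0.42 on the log2 scale. Whether reads were counted by strand is not stated in the labels, and reads of DLX6 and DLX6-AS1 may therefore not be told apart.

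Other factors of the group rose as well. SIX3, a homeobox factor of the anterior forebrain and of striatal neurons, was at 20, 18.1 and 23.5 CPM in the chronic libraries and 3.38 and 3.4 CPM in the controls (log2 fold change 2.60 ± 0.16 SE, adjusted p = 8.44e-05). Its controls were nearly equal, and every chronic library lay well above them. ZNF503, expressed in the developing striatum, was at 13.9, 13.5 and 13.3 CPM in the chronic libraries and 5.56 and 5.6 CPM in the controls (log2 fold change 1.28 ± 0.13 SE, adjusted p = 0.00193). NR2F2, a factor of caudal interneurons, was at 78.1, 73.7 and 86.2 CPM in the chronic libraries and 36.8 and 46.1 CPM in the controls (log2 fold change 0.94 ± 0.11 SE, adjusted p = 0.00256). EBF1, a factor of striatal projection neurons, rose by 2.86 ± 0.33 on the log2 scale, GSX2, a progenitor factor of the lateral ganglionic eminence, by 2.53 ± 0.32, SP9 by 2.93 ± 0.46 and PBX3 by 1.74 ± 0.30. VAX1, a ventral forebrain homeobox factor, was at 21.5, 14.6 and 14 CPM in the chronic libraries and 2.52 and 0.785 CPM in the controls (log2 fold change 3.36 ± 0.36 SE, adjusted p = 0.00193). LHX6, which marks interneurons of the medial ganglionic eminence, was at 0.716, 1.38 and 5.17 CPM in the chronic libraries and 0.115 and 0.262 CPM in the controls and did not pass (adjusted p = 0.0598). ISL1, a striatal and motor neuron factor, was low throughout at 1.71, 0.435 and 1.15 CPM in the chronic libraries and 0 and 0.157 CPM in the controls and passed (adjusted p = 0.0437). The members that fell were SATB1 (-0.60 ± 0.08), ZEB2 (-0.36 ± 0.08) and BCL11B (-0.48 ± 0.08), which cortical excitatory neurons express as well.

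**Figure D2:**
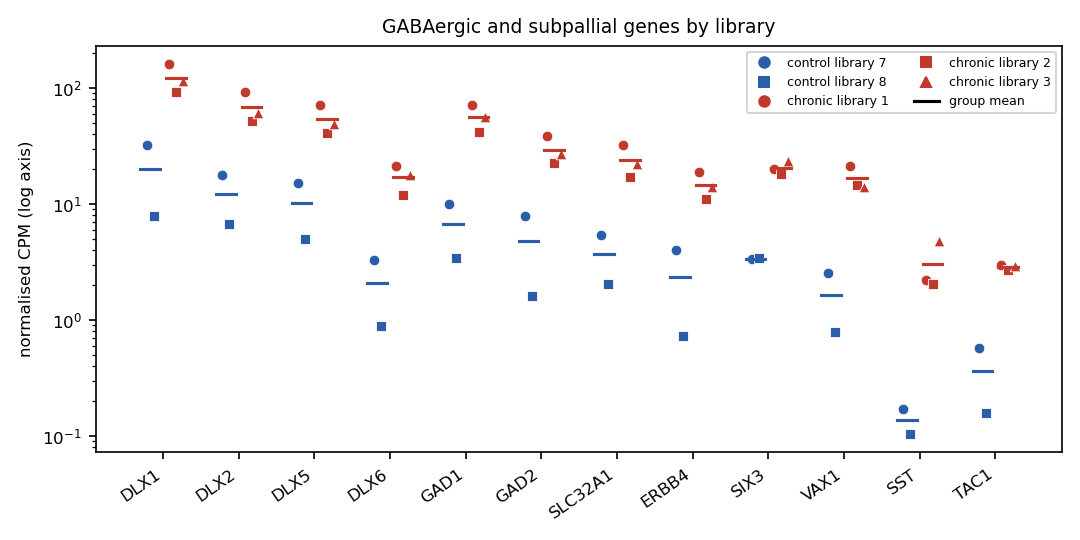
TMM-normalised CPM (log axis) of 12 GABAergic and subpallial genes in each library; bars are group means of 3 chronic (red) and 2 control (blue) libraries. In every gene drawn all 3 chronic libraries lie above both controls, as they do in 20.3% of tested genes. In most genes drawn control library 8 (blue square) is the lowest, while SIX3 has nearly equal controls.

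The genes that make and move GABA rose with these factors. Of 7 tested members of the list of GABA synthesis, transport and breakdown, 5 rose and 0 fell, with a median log2 fold change of 1.003. Leaving out control library 8 gave 3 and 0, and keeping library 9 gave 5 and 0. GAD1 was at 72.2, 41.6 and 56.4 CPM in the chronic libraries and 10.1 and 3.46 CPM in the controls (log2 fold change 3.09 ± 0.35 SE, adjusted p = 0.00232) and GAD2 at 38.8, 22.5 and 26.9 CPM in the chronic libraries and 7.9 and 1.62 CPM in the controls (log2 fold change 2.65 ± 0.44 SE, adjusted p = 0.00903). SLC32A1, which loads GABA into vesicles, was at 32.5, 17.2 and 22.1 CPM in the chronic libraries and 5.44 and 2.04 CPM in the controls (log2 fold change 2.70 ± 0.36 SE, adjusted p = 0.0033). The chronic libraries lay above both controls in these 3 genes, as in 20.3% of tested genes. Without control library 8, which leaves a single control, their log2 fold changes were 2.49, 1.90 and 2.14. The glial GABA transporter SLC6A11 rose by 0.77 ± 0.15. The breakdown enzymes ABAT (0.08 ± 0.08) and ALDH5A1 (0.05 ± 0.11) did not pass. In GRCh38, GAD1 spans chr2:170813213-170861151, DLX1 chr2:172084740-172089677, DLX2 chr2:172099438-172102900, DLX5 chr7:97020396-97024950 and DLX6 chr7:97005553-97011040, all protein-coding genes.

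SST, TAC1, VIP and NPY, neuropeptide genes of these neurons, were at no more than a few CPM in both groups. Of 13 tested members of the list of interneuron and striatal neuropeptides, 3 rose and 0 fell, with a median log2 fold change of 0.90. Among all genes 2.99% rose. The counts, higher and lower, were 2 and 0 with library 9 kept and 0 and 0 without control library 8. SST, which encodes somatostatin, was at 2.2, 2.03 and 4.82 CPM in the chronic libraries and 0.172 and 0.105 CPM in the controls (log2 fold change 4.40 ± 0.63 SE, adjusted p = 0.00467). TAC1, which encodes substance P, was at 2.98, 2.68 and 2.93 CPM in the chronic libraries and 0.573 and 0.157 CPM in the controls (log2 fold change 2.98 ± 0.44 SE, adjusted p = 0.0054). VIP was at 0.992, 0.29 and 0.689 CPM in the chronic libraries and had no count in control libraries 7 and 8, at least 3.99-fold higher against a floor of 3 counts per library (adjusted p = 0.0291). At levels of a few CPM, these 3 peptides were higher in every chronic library than in either control, as were 20.3% of tested genes. NPY was at 2.37, 1.67 and 2.98 CPM in the chronic libraries and 1.43 and 2.04 CPM in the controls and its groups overlapped (adjusted p = 0.483). RELN, which encodes reelin, was at 53.7, 31.6 and 23 CPM in the chronic libraries and 18.9 and 11 CPM in the controls (adjusted p = 0.0547). PDYN, which encodes dynorphin, was at 13.8, 14.4 and 18.1 CPM in the chronic libraries and 17 and 13.6 CPM in the controls (adjusted p = 0.964).

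Receptors and channels of interneurons moved in part. Of 17 tested members of the list of interneuron membrane and synaptic genes, 10 rose and 0 fell, with a median log2 fold change of 0.85. They were 4 and 0 without control library 8 and 6 and 0 with library 9 kept. The summed level of the list was nevertheless 1190, 1122 and 1103 CPM in the chronic libraries and 1200 and 1304 CPM in the controls, and abundant members such as GRIK3 (-0.29 ± 0.08) and ROBO1 (-0.39 ± 0.10) did not pass. ERBB4, the neuregulin receptor of migrating interneurons, was at 18.8, 11.2 and 14.1 CPM in the chronic libraries and 4.01 and 0.733 CPM in the controls (log2 fold change 2.67 ± 0.45 SE, adjusted p = 0.00938). SLITRK6, a membrane protein of neurons, was at 7.55, 4.93 and 7.75 CPM in the chronic libraries and 0.229 and 0.367 CPM in the controls (log2 fold change 4.46 ± 0.37 SE, adjusted p = 0.00089). Its groups are far apart, and it passed with library 9 kept (adjusted p = 4.66e-05) and without control library 8 (adjusted p = 0.0161). BTBD11 rose by 2.92 ± 0.38, the RNA-editing family member ADARB2 by 1.65 ± 0.24, and the AMPA receptor subunit GRIA4 by 1.13 ± 0.17. The chemokine receptor CXCR4, which guides migrating interneurons, was at 35.8, 32.3 and 29.4 CPM in the chronic libraries and 20.9 and 20.2 CPM in the controls (log2 fold change 0.66 ± 0.11 SE, adjusted p = 0.00938).

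Genes of cortical excitatory neurons fell. Of 22 tested members of the list of cortical glutamatergic neuron genes, 1 rose and 14 fell, with a median log2 fold change of -0.56, against 1.9% of all genes that fell. Keeping library 9 gave 0 and 1, and leaving out control library 8 gave 0 and 5. TBR1, a factor of deep-layer neurons, was at 382, 395 and 362 CPM in the chronic libraries and 563 and 694 CPM in the controls (log2 fold change -0.73 ± 0.10 SE, adjusted p = 0.00327). FEZF2, which specifies subcortical projection neurons, was at 125, 149.7 and 144 CPM in the chronic libraries and 231 and 325 CPM in the controls (log2 fold change -0.996 ± 0.13 SE, adjusted p = 0.00329). NEUROD6, expressed in young excitatory neurons, was at 556, 723 and 744 CPM in the chronic libraries and 1104 and 1332 CPM in the controls (log2 fold change -0.85 ± 0.13 SE, adjusted p = 0.00566). In all 3 genes both controls lay above every chronic library, as they did in 19% of tested genes. SLC17A7, a vesicular glutamate transporter, was at 138, 158 and 155 CPM in the chronic libraries and 210.4 and 249.7 CPM in the controls (log2 fold change -0.61 ± 0.09 SE, adjusted p = 0.00658). NFIB, a factor of deep-layer neurons and of glia, was at 357, 393 and 359 CPM in the chronic libraries and 535 and 573 CPM in the controls (log2 fold change -0.58 ± 0.08 SE, adjusted p = 0.00338). CRYM, which binds thyroid hormone and marks deep-layer neurons, was at 15.7, 9.05 and 10.6 CPM in the chronic libraries and 31.1 and 28 CPM in the controls (log2 fold change -1.31 ± 0.18 SE, adjusted p = 0.00433). NEUROD2 (-0.65 ± 0.13), BCL11A (-0.55 ± 0.10), SOX5 (-0.60 ± 0.12), TLE4 (-0.68 ± 0.12) and ZBTB18 (-0.45 ± 0.10) fell as well. The upper-layer genes CUX1 (0.15 ± 0.08) and CUX2 (-0.09 ± 0.09) did not pass. The member that rose was SLC17A6 (0.86 ± 0.20), the vesicular glutamate transporter that subcortical neurons use.

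**Figure D3:**
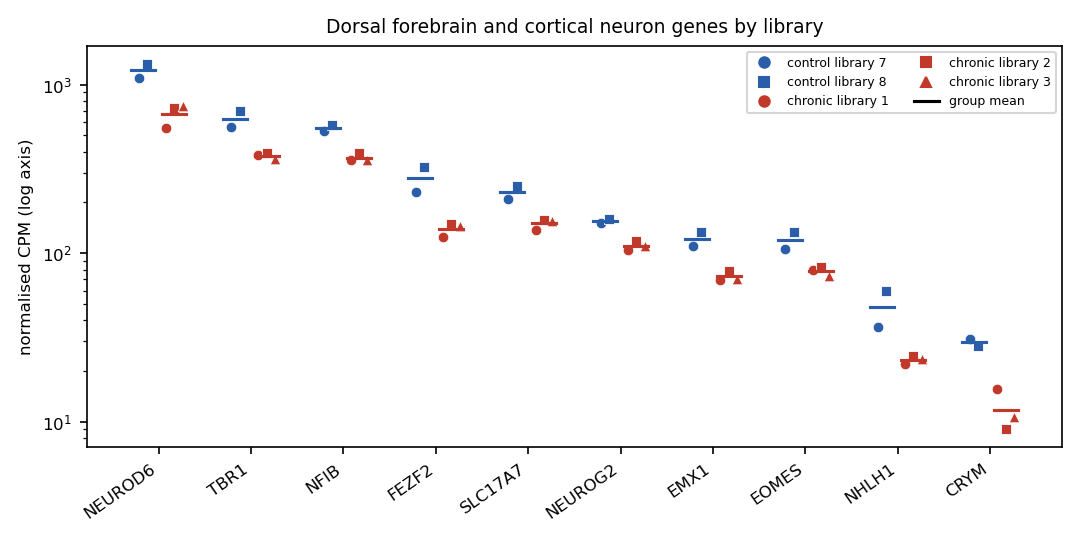
TMM-normalised CPM (log axis) of 10 dorsal forebrain and cortical neuron genes in each library; bars are group means of 3 chronic (red) and 2 control (blue) libraries. Both controls lie above all chronic libraries in every gene drawn, with control library 8 (blue square) mostly the highest. Of tested genes 19% separate in this direction. Library 9 is not drawn.

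Most calls in the cortical group were lost with library 9 kept. The list summed to 5104, 6335 and 6137 CPM in the chronic libraries, 7769 and 8653 CPM in control libraries 7 and 8 and 2279 CPM in library 9 (130 counts, 95% Poisson interval 1904 to 2706). Library 9 had 2 counts of TBR1 and 4 of NEUROD6. With it, the log2 fold change was -0.24 for TBR1, -0.34 for NEUROD6, -1.003 for FEZF2 and -0.93 for NEUROD2 (adjusted p = 0.989, 0.986, 0.617 and 0.752). TBR1 and NEUROD6 were thus closer to 0, FEZF2 kept its size and NEUROD2 was further from 0, while CRYM (-1.31) passed (adjusted p = 0.00358). The library differed in other ways too: cytosolic ribosomal protein genes summed to 57730 CPM in it (55780 to 59740) against 19600 to 21590 CPM in the other libraries.

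Dorsal progenitor and proneural factors were lower too. Of 18 tested members of the list of dorsal progenitor and proneural factors, 1 rose and 7 fell, with a median log2 fold change of -0.47. Leaving out control library 8 gave 0 and 3, and keeping library 9 gave 1 and 3. EMX1, a dorsal telencephalic homeobox factor, was at 69.2, 78.8 and 70.6 CPM in the chronic libraries and 109.8 and 133 CPM in the controls (log2 fold change -0.74 ± 0.10 SE, adjusted p = 0.00327). It had 15 counts in library 9 and passed with it (adjusted p = 0.0297). EOMES, a factor of intermediate progenitors, was at 79, 83.3 and 73.1 CPM in the chronic libraries and 106 and 134 CPM in the controls (log2 fold change -0.62 ± 0.10 SE, adjusted p = 0.00938). NEUROG2, a proneural factor, was at 104, 118 and 111 CPM in the chronic libraries and 151 and 160.0 CPM in the controls (log2 fold change -0.49 ± 0.08 SE, adjusted p = 0.0076). The chronic libraries of these 3 genes lay below both controls, as they did in 19% of tested genes. NHLH1 (-1.04 ± 0.17), NEUROG1 (-1.02 ± 0.20), LHX2 (-0.47 ± 0.07) and EMX2 (-0.60 ± 0.13) fell as well. NEUROD1 was at 7.16, 12 and 10.2 CPM in the chronic libraries and 15.2 and 16.9 CPM in the controls (adjusted p = 0.0547) and DMRTA2 at 15, 21.9 and 16.8 CPM in the chronic libraries and 24.7 and 29.4 CPM in the controls (adjusted p = 0.0538), and neither passed. PAX6, a progenitor factor, was at 142, 104 and 97.9 CPM in the chronic libraries and 96.5 and 110.3 CPM in the controls with groups that overlapped (adjusted p = 0.587). The member that rose was LMO2 (1.47 ± 0.27), a cofactor known from blood and vessels.

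Several of the smallest p-values belonged to genes outside these groups. PDE5A, which breaks down cGMP, was at 24.9, 21.2 and 25.9 CPM in the chronic libraries and 3.38 and 2.93 CPM in the controls (log2 fold change 2.93 ± 0.16 SE, adjusted p = 3.99e-05). WLS, the carrier that lets cells secrete Wnt ligands, was at 55.8, 41.7 and 52.6 CPM in the chronic libraries and 7.96 and 8.17 CPM in the controls (log2 fold change 2.63 ± 0.15 SE, adjusted p = 3.99e-05). In both genes the 3 chronic libraries were close together and far above controls that were nearly equal. They passed without control library 8 at adjusted p = 0.00309 and 0.00486. FOXO1, a factor downstream of insulin signals, was at 12.8, 13 and 11.5 CPM in the chronic libraries and 4.24 and 4.29 CPM in the controls (log2 fold change 1.54 ± 0.15 SE, adjusted p = 0.00193). WWTR1, a coactivator of the Hippo pathway, rose by 1.45 ± 0.15, PI15 by 2.36 ± 0.23 and SOX2-OT by 1.99 ± 0.20. SOX2 lies inside SOX2-OT, and the way their reads were split is not stated in the labels.

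Among genes that fell, MEF2C, an activity-regulated factor of neurons, was at 234, 228 and 257 CPM in the chronic libraries and 415 and 401 CPM in the controls (log2 fold change -0.77 ± 0.08 SE, adjusted p = 0.00193). EFNA5, an ephrin that guides axons, was at 25.4, 26 and 23.2 CPM in the chronic libraries and 46.7 and 53.8 CPM in the controls (log2 fold change -1.01 ± 0.10 SE, adjusted p = 0.00193). RCAN1, an inhibitor of calcineurin, was at 135, 146 and 152 CPM in the chronic libraries and 229 and 241 CPM in the controls (log2 fold change -0.70 ± 0.08 SE, adjusted p = 0.00205). Their chronic and control libraries lay apart, with both controls close together. STUM (-0.68 ± 0.07), FAM196A (-0.90 ± 0.10), DOK6 (-0.66 ± 0.07), RGS7 (-0.75 ± 0.08), SEMA3C (-0.87 ± 0.10), NAV2 (-0.79 ± 0.09) and TMEM178A (-0.89 ± 0.11) fell too. With library 9 kept, MEF2C (-0.29), DOK6 (-0.32) and RCAN1 (-0.41) came closer to 0 and did not pass (adjusted p = 0.987, 0.986 and 0.979). STUM (-0.64) and NAV2 (-0.74) stayed near their size and did not pass either (adjusted p = 0.0719 and 0.121), while EFNA5 passed (adjusted p = 0.00713).

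The largest folds came from genes near the detection limit. ADAM1A, a pseudogene, was at 4.85, 2.46 and 0.976 CPM in the chronic libraries with no count in controls 7 and 8, at least 16.8-fold higher. SULT1A4 was at 2.18 and 1.88 CPM in controls 7 and 8 with no count in chronic libraries, at least 11-fold lower, but SULT1A3 is a nearly identical copy and the authors' counting could split their reads. LOC100130502 (4.52 ± 0.71), TDRD12 (4.34 ± 0.77), RMST (4.27 ± 0.76), SLC39A12 (4.24 ± 1.01), COLEC12 (4.23 ± 1.04) and DTHD1 (3.53 ± 0.87) rose, with controls between 0 and 0.157 CPM, and these folds rest on 2 to 4 counts in both controls together. SLC39A12 was at 1.6, 0.217 and 1.55 CPM and COLEC12 at 2.31, 0.29 and 3.79 CPM in the chronic libraries. Chronic library 2 thus lay near the controls for SLC39A12 and COLEC12. ALK, a receptor tyrosine kinase of developing neurons, was at 2.53, 3.33 and 2.07 CPM in the chronic libraries and 0.286 and 0.105 CPM in the controls (log2 fold change 3.72 ± 0.49 SE, adjusted p = 0.00327). CHRM5, a muscarinic acetylcholine receptor, was at 0.331, 1.09 and 1.43 CPM in the chronic libraries and 2.75 and 4.92 CPM in the controls (log2 fold change -2.03 ± 0.45 SE, adjusted p = 0.0337). HTR2B, a serotonin receptor, was at 0.992, 0.435 and 0.918 CPM in the chronic libraries and 2.69 and 3.3 CPM in the controls (log2 fold change -1.90 ± 0.35 SE, adjusted p = 0.0135). The groups of these 3 receptor genes did not overlap, a pattern that 20.3% of tested genes showed in the higher direction and 19% in the lower. CAV1, a protein of caveolae, was at 0.937, 0.797 and 0.746 CPM in the chronic libraries and 1.89 and 2.67 CPM in the controls (log2 fold change -1.46 ± 0.33 SE, adjusted p = 0.035). CYP26A1, which degrades retinoic acid, was at 1.27, 1.09 and 2.07 CPM in the chronic libraries and 3.78 and 3.67 CPM in the controls (log2 fold change -1.32 ± 0.30 SE, adjusted p = 0.0345). LOC105377647 (-1.96 ± 0.46), LOC105374966 (-1.67 ± 0.31), ZNF860 (-1.57 ± 0.32), TCERG1L (-1.001 ± 0.15), SMIM11B (-1.47 ± 0.18), which has a near-identical copy, and C8orf34-AS1 (-1.32 ± 0.23), an antisense RNA, fell. Most genes named in this paragraph, with ALK, CAV1, CHRM5, HTR2B and CYP26A1 among them, did not pass without control library 8, which leaves a single control. CAV1, CHRM5, HTR2B and CYP26A1 were then at -1.18, -1.54, -1.74 and -1.34 on the log2 scale.

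Some pigment cell genes rose, at low levels. Of 12 tested members of the list of pigment cell genes, 5 rose and 0 fell, with a median log2 fold change of 1.39. The counts, higher and lower, were 6 and 0 with library 9 kept and 3 and 0 without control library 8. The summed level of the list was 114.1, 93.37 and 85.28 CPM in the chronic libraries and 89.47 and 96.13 CPM in the controls, so the groups overlapped. DCT, dopachrome tautomerase of the melanin pathway, was at 8.76, 7.32 and 6.54 CPM in the chronic libraries and 1.26 and 1.36 CPM in the controls (log2 fold change 2.52 ± 0.23 SE, adjusted p = 0.00181). TYRP1, a related melanosome enzyme, was at 3.36, 5.8 and 3.39 CPM in the chronic libraries and 0.229 and 0 CPM in the controls (log2 fold change 5.15 ± 0.64 SE, adjusted p = 0.00306), with 4 counts in control library 7. TYR, tyrosinase, the first enzyme of melanin synthesis, was at 1.1, 0.942 and 0.976 CPM in the chronic libraries with no count in controls 7 and 8, at least 6.12-fold higher (adjusted p = 0.00562). PMEL, which forms the fibrils of melanosomes, was at 4.02, 2.46 and 3.62 CPM in the chronic libraries and 0.458 and 0.314 CPM in the controls (log2 fold change 3.12 ± 0.39 SE, adjusted p = 0.00306). The chronic libraries of all 4 genes lay above both controls, and TYR did not pass without control library 8 (adjusted p = 0.0607). Such a separation upwards was seen in 20.3% of tested genes. EDNRB, an endothelin receptor of melanoblasts and glia, rose by 1.84 ± 0.29. MITF, the factor that drives the pigment genes, was at 2.2, 1.52 and 2.3 CPM in the chronic libraries and 1.49 and 1.05 CPM in the controls and did not pass (adjusted p = 0.275). MLANA was too low to test, at 0.331, 0.145 and 0.574 CPM in the chronic libraries and 0 and 0.0524 CPM in the controls. SOX10, a factor of neural crest and its melanocytes, was at 0.11, 0.435 and 0.287 CPM in the chronic libraries and at 0 and 0.105 CPM in the controls.

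The promoters of TYRP1 and TYR are shown because MITF binds the M-box in pigment promoters, and that of GAD1 stands beside them for the GABA genes. That of DCT is not shown, since its RefSeq start lies outside the bounds of the gene in GENCODE. Each is the 250 bases before the transcript start in RefSeq (GRCh38.p14), with capitals marking TCATGTG, the core of the M-box, or TAATTA, a core that homeodomain proteins bind. TYRP1 lies at chr9:12693135-12693384 on the plus strand, TYR at chr11:89177625-89177874 on the plus strand and GAD1 at chr2:170816637-170816886 on the plus strand. GENCODE has the same start for TYR, but its bounds of TYRP1 and GAD1 begin further upstream, and these need not be the starts used in the organoids.
TYRP1: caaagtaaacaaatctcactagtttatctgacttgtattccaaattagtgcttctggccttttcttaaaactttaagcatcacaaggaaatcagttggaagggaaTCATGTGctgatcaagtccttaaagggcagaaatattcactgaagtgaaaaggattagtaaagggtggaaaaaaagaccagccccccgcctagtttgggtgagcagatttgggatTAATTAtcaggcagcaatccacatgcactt
TYR: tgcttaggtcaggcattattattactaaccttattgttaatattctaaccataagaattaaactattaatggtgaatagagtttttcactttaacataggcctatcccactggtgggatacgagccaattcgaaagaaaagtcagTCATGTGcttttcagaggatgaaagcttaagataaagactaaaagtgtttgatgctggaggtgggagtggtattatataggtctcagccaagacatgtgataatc
GAD1: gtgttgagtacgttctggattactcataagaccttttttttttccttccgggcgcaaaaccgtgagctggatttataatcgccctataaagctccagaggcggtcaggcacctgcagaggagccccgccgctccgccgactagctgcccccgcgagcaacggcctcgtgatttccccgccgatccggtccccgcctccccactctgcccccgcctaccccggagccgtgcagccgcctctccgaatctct
TYRP1 holds TCATGTG 145 bases before its start and TAATTA 30 bases before it, and TYR holds TCATGTG 105 bases before its start. GAD1 holds neither in this window. Searched on both strands, TCATGTG stood in 704 of 27305 promoters of this length (2.58%) and in 148 of the 11374 that belong to tested genes (1.3%), and TAATTA in 4.49% and 2.21%. Of the 12 tested pigment genes 10 have a promoter in the table, and 3 hold TCATGTG, which are TYR, TYRP1 and GPNMB. Of the 11 tested GABA and DLX genes 9 have a promoter, and 0 hold either motif. A match describes the sequence and is no measured binding site.

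Some eye genes rose beside the pigment genes, while choroid plexus genes varied widely between chronic libraries. Of 10 tested members of the list of retinal pigment epithelium and eye field, 4 rose and 0 fell, with a median log2 fold change of 1.21. They were 2 and 0 without control library 8 and 5 and 0 with library 9 kept. OTX2, a factor of the retinal pigment epithelium, choroid plexus and diencephalon, was at 15.8, 12.4 and 14.6 CPM in the chronic libraries and 5.1 and 1.88 CPM in the controls (log2 fold change 2.05 ± 0.30 SE, adjusted p = 0.00561). RPE65, the retinoid isomerase of the retinal pigment epithelium, was at 4.63, 5 and 7.58 CPM in the chronic libraries and 2 and 1.1 CPM in the controls (log2 fold change 1.90 ± 0.32 SE, adjusted p = 0.01). SERPINF1, a secreted protein of that epithelium, rose by 1.36 ± 0.34. Of 11 choroid plexus genes, OTX2 alone passed in edgeR's test and limma-voom called 1 too, while DESeq2 called 5, and the list median was 1.36. TTR, the transthyretin made by the choroid plexus, was at 31.2, 0.435 and 127 CPM in the chronic libraries and 0.344 and 0.785 CPM in the controls. Chronic libraries 1 and 3 stood far above the rest and chronic library 2 lay with the controls, and TTR did not pass (adjusted p = 0.0596, and 0.0416 with library 9 kept). CLIC6 (1.21, 0.217 and 2.47 CPM in the chronic libraries and 0.172 and 0.157 CPM in the controls), a choroid plexus channel, had the same order of chronic libraries and did not pass (adjusted p = 0.0936). Of 9 hypothalamic and diencephalic genes 3 rose: FEZF1 (2.34 ± 0.32), NKX2-2 (3.84 ± 0.63) and BARHL2 (2.27 ± 0.57). In this list 4 rose and 0 fell with library 9 kept, against 0 and 0 without control library 8.

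**Figure D4:**
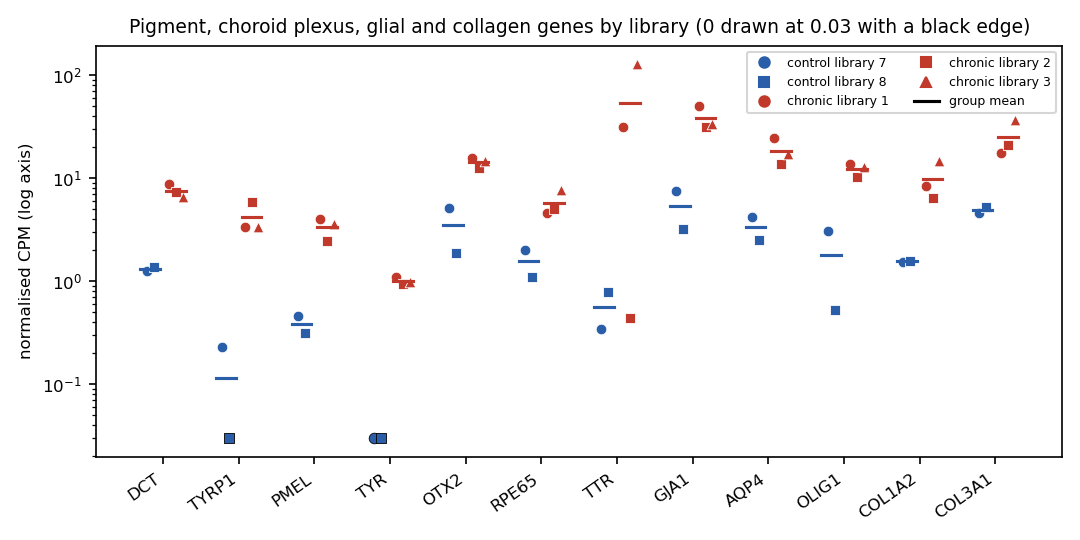
TMM-normalised CPM (log axis) of 12 pigment, eye, choroid plexus, glial and collagen genes in each library; bars are group means of 3 chronic (red) and 2 control (blue) libraries, and a value of 0 is drawn at 0.03 with a black edge. All chronic libraries lie above both controls except for TTR, where chronic library 2 is at 0.435 CPM and chronic library 3 at 127 CPM. Of tested genes 20.3% separate in this direction.

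Glial genes rose in part. Of 14 tested members of the list of astrocyte genes, 4 rose and 0 fell, with a median log2 fold change of 1.01. Keeping library 9 gave 4 and 0, and leaving out control library 8 gave 3 and 0. The summed level of the list overlapped, at 1112, 903.6 and 897.1 CPM in the chronic libraries and 871.8 and 900.8 CPM in the controls. GJA1, the gap junction protein connexin of astrocytes and radial glia, was at 49.9, 31.1 and 33.3 CPM in the chronic libraries and 7.5 and 3.19 CPM in the controls (log2 fold change 2.85 ± 0.31 SE, adjusted p = 0.00205). AQP4, the astrocytic water channel, was at 24.4, 13.6 and 17.2 CPM in the chronic libraries and 4.18 and 2.51 CPM in the controls (log2 fold change 2.47 ± 0.28 SE, adjusted p = 0.00232). ALDH1L1 (1.69 ± 0.41) and APOE (0.76 ± 0.19) rose, while GFAP was at 11.4, 8.04 and 9.3 CPM in the chronic libraries and 6.64 and 7.07 CPM in the controls (adjusted p = 0.143). The chronic libraries lay above both controls in GJA1, AQP4 and GFAP, as they did in 20.3% of tested genes. Of 9 tested members of the list of oligodendrocyte lineage, 4 rose and 0 fell, with a median log2 fold change of 1.24. Leaving out control library 8 gave 2 and 0, and keeping library 9 gave 4 and 0. OLIG1, a factor of oligodendrocyte and ventral progenitors, was at 13.8, 10.3 and 12.9 CPM in the chronic libraries and 3.09 and 0.524 CPM in the controls (log2 fold change 2.80 ± 0.43 SE, adjusted p = 0.0065). PDGFRA, a receptor of oligodendrocyte precursors, was at 25.1, 17.2 and 27.4 CPM in the chronic libraries and 13.9 and 5.97 CPM in the controls (log2 fold change 1.24 ± 0.30 SE, adjusted p = 0.0419). The myelin protein gene MBP (1.28 ± 0.46) did not pass. Among 18 radial glia genes SOX2 (0.45 ± 0.10), HES5 (0.62 ± 0.13) and FAM107A (0.52 ± 0.12) rose, and VIM (0.11 ± 0.08) and NES (0.49 ± 0.13) did not pass. In this list 0 rose and 0 fell with library 9 kept, against 0 and 0 without control library 8.

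Some collagen and other mesenchymal genes rose. Of 19 tested members of the list of mesenchymal and collagen genes, 7 rose and 0 fell, with a median log2 fold change of 0.65. Among all genes 2.99% rose and 1.9% fell. The counts, higher and lower, were 6 and 0 with library 9 kept and 0 and 0 without control library 8. COL3A1 was at 17.6, 20.7 and 36.4 CPM in the chronic libraries and 4.58 and 5.29 CPM in the controls (log2 fold change 2.33 ± 0.30 SE, adjusted p = 0.00327) and COL1A2 at 8.32, 6.45 and 14.6 CPM in the chronic libraries and 1.55 and 1.57 CPM in the controls (log2 fold change 2.66 ± 0.36 SE, adjusted p = 0.00379). COL1A1 was at 9.81, 9.71 and 19.5 CPM in the chronic libraries and 1.83 and 3.61 CPM in the controls (log2 fold change 2.25 ± 0.37 SE, adjusted p = 0.00903). Chronic library 3 was the highest for all 3 fibrillar collagens. Both controls lay below every chronic library, as they did in 20.3% of tested genes. DCN (1.89 ± 0.39), PDGFRB (0.62 ± 0.12), FN1 (0.60 ± 0.14) and SPARC (0.76 ± 0.16) rose as well. LUM, another fibroblast marker, was at 1.98, 0.724 and 1.21 CPM in the chronic libraries and 0.974 and 0.367 CPM in the controls (adjusted p = 0.317). In the fit of all 18 libraries 0 members of the list rose and 0 fell. The adjusted p in that fit was 0.427 for COL3A1 and 0.405 for COL1A2. Of 36 tested collagens of all types, a family chosen after its values were seen, only these 3 fibrillar genes rose and 1 fell.

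Genes of Wnt and BMP signalling rose beside WLS. Of 21 tested members of the list of Wnt and BMP signalling, 8 rose and 0 fell, with a median log2 fold change of 0.49. They were 1 and 0 without control library 8 and 5 and 0 with library 9 kept. The ligand WNT5A was at 10.9, 4.71 and 4.42 CPM in the chronic libraries and 1.89 and 1.26 CPM in the controls (log2 fold change 2.10 ± 0.43 SE, adjusted p = 0.0235). RSPO2, an enhancer of Wnt signals, was at 3.58, 3.48 and 7.75 CPM in the chronic libraries and 1.26 and 1.31 CPM in the controls (log2 fold change 1.94 ± 0.40 SE, adjusted p = 0.0231). The Wnt target genes AXIN2 (0.03 ± 0.10) and LEF1 (0.06 ± 0.13) did not pass. The BMP ligand BMP6 (2.15 ± 0.47), the BMP target ID1 (1.59 ± 0.27), ID4 (0.49 ± 0.09) and NOG (1.35 ± 0.30), a BMP inhibitor, rose. In the hedgehog pathway, which the protocol stimulates in both groups, PTCH1, its receptor and target, was at 75.6, 70.3 and 64 CPM in the chronic libraries and 44.6 and 53.8 CPM in the controls (log2 fold change 0.51 ± 0.10 SE, adjusted p = 0.0235). GLI1, another target, was at 1.16, 2.1 and 1.43 CPM in the chronic libraries and 1.43 and 1.41 CPM in the controls and did not pass (adjusted p = 0.886).

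In each list of dopamine genes 1 member passed, while 4.9% of all genes did. Lists of 16 and 9 tested members are too small to set apart from that share. Of 16 tested members of the list of dopamine receptors and striatal signalling, 1 rose and 0 fell, with a median log2 fold change of -0.02. At an unadjusted p under 0.05, 7 of the 16 passed, and of all 15708 genes 1809 were higher and 1538 lower. Keeping library 9 gave 1 and 0, and leaving out control library 8 gave 1 and 0. DRD1 was at 1.49, 1.23 and 1.09 CPM in the chronic libraries and 0.859 and 0.314 CPM in the controls (adjusted p = 0.197), DRD2 at 1.98, 2.25 and 2.24 CPM in the chronic libraries and 1.2 and 2.36 CPM in the controls (adjusted p = 0.693) and DRD4 at 1.05, 1.01 and 1.55 CPM in the chronic libraries and 1.6 and 1.26 CPM in the controls (adjusted p = 0.751). DRD3, at 0 to 0.386 CPM, and DRD5, at 0 to 0.115 CPM, were too low to test. The receptors were thus within a few CPM of 0 in both groups. DRD1 was higher in every chronic library than in either control, a pattern that 20.3% of tested genes showed. PPP1R1B, the DARPP-32 protein of striatal neurons, was at 25.1, 17.6 and 22.1 CPM in the chronic libraries and 26.6 and 34.3 CPM in the controls (adjusted p = 0.103). The member that rose was PDE1B, a cyclic nucleotide phosphodiesterase of the striatum, at 6.94, 7.1 and 7.46 CPM in the chronic libraries and 2.18 and 1.31 CPM in the controls (log2 fold change 2.05 ± 0.24 SE, adjusted p = 0.00245). Of 9 tested members of the list of dopamine synthesis, transport and breakdown, 1 rose and 0 fell, with a median log2 fold change of 0.16. Leaving out control library 8 gave 0 and 0, and keeping library 9 gave 0 and 0. MAOA, which oxidises dopamine, was at 27.4, 26.4 and 27.2 CPM in the chronic libraries and 19.1 and 15.7 CPM in the controls (log2 fold change 0.64 ± 0.11 SE, adjusted p = 0.0122). TH, which makes its precursor, had 0 to 0.276 CPM and was too low to test. SLC18A2, the vesicular monoamine transporter, was at 7.05, 7.97 and 7.17 CPM in the chronic libraries and 9.68 and 8.59 CPM in the controls (adjusted p = 0.264).

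Activity genes were called in both directions. Of 34 tested members of the list of activity and immediate early response genes, 3 rose and 3 fell, with a median log2 fold change of -0.14, against 2.99% and 1.9% of all genes. The counts, higher and lower, were 2 and 1 with library 9 kept and 0 and 0 without control library 8. FOS was at 4.46, 5.72 and 4.82 CPM in the chronic libraries and 5.21 and 4.76 CPM in the controls (adjusted p = 0.996) and NR4A1 at 17.7, 14.5 and 13 CPM in the chronic libraries and 16 and 18.2 CPM in the controls (adjusted p = 0.515), with groups that overlapped. EGR3, an early response factor, was at 3.58, 3.19 and 3.56 CPM in the chronic libraries and 1.15 and 1.15 CPM in the controls (log2 fold change 1.58 ± 0.26 SE, adjusted p = 0.00938), and NPTX2, an activity-regulated pentraxin, at 13.7, 8.04 and 7.81 CPM in the chronic libraries and 3.61 and 3.51 CPM in the controls (log2 fold change 1.48 ± 0.27 SE, adjusted p = 0.0123). NR4A2, an orphan receptor of dopamine and deep cortical neurons, was at 51.9, 91.8 and 78.5 CPM in the chronic libraries and 134 and 151 CPM in the controls (log2 fold change -0.95 ± 0.18 SE, adjusted p = 0.0157). FOSL2 (-0.77 ± 0.12) and NRN1 (-0.38 ± 0.08) fell, and ATF3 (0.73 ± 0.18), a stress factor, rose.

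Of 26 tested NRF2 and antioxidant genes, the group that oxidants induce, 1 rose and 0 fell, with a list median of 0.09, and 8 passed at an unadjusted p under 0.05. SLC7A11, the cystine transporter that feeds glutathione synthesis, was at 49.6, 34.9 and 33.4 CPM in the chronic libraries and 19 and 12.3 CPM in the controls (log2 fold change 1.34 ± 0.21 SE, adjusted p = 0.00704). It did not pass without control library 8 (adjusted p = 0.0876). HMOX1, heme oxygenase, was at 3.09, 2.75 and 2.81 CPM in the chronic libraries and 1.89 and 1.52 CPM in the controls (adjusted p = 0.129), and NQO1, a quinone reductase, at 5.62, 5.94 and 6.2 CPM in the chronic libraries and 5.1 and 3.19 CPM in the controls (adjusted p = 0.212). Both lay slightly higher in every chronic library than in either control, as did 20.3% of tested genes. TXNIP, which binds thioredoxin, was at 507, 518 and 492 CPM in the chronic libraries and 464 and 438 CPM in the controls (adjusted p = 0.23). At an unadjusted p under 0.05, 1809 genes of all tested were higher and 1538 lower. Of 24 unfolded protein and chaperone genes, 14 p53 and cell death genes, 19 cholesterol genes, 23 nuclear respiratory chain genes and 28 ribosomal protein genes, 0 passed in edgeR's test. At an unadjusted p under 0.05, 4, 0, 1, 2 and 5 of them passed, in that order, and adjusted calls numbered 1, 0, 0, 0 and 2 by DESeq2 and 0, 0, 0, 0 and 0 by limma-voom. Of 20 interferon response genes IFIT2 (1.17 ± 0.27), IFI44 (0.50 ± 0.12) and IFI44L (0.46 ± 0.11) rose, against 2.99% of all genes. The list median was 0.45, 19 of the 20 had a positive value, and 13 passed at an unadjusted p under 0.05. In this list 1 rose and 0 fell with library 9 kept, against 0 and 0 without control library 8. Of 22 hypoxia and glycolysis genes HK2 (0.62 ± 0.13), a hexokinase, rose.

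General neuronal and dividing-cell genes set the scale. Of 19 tested pan-neuronal and presynaptic genes 3 fell and 0 rose, with a list median of -0.21. SYT1, a calcium sensor of vesicles, was at 486, 527 and 512 CPM in the chronic libraries and 677 and 719 CPM in the controls (log2 fold change -0.46 ± 0.08 SE, adjusted p = 0.0089), and SNAP25 (-0.49 ± 0.10) and RAB3A (-0.57 ± 0.09) fell too. In this list 0 rose and 0 fell with library 9 kept, against 0 and 1 without control library 8. TUBB3, a tubulin of all neurons, was at 1072, 1073 and 1074 CPM in the chronic libraries and 1139 and 999.7 CPM in the controls (adjusted p = 0.982), with values that overlapped. Of 28 cell cycle genes, 0 passed in edgeR's test. At an unadjusted p under 0.05, 3 of them passed, and adjusted calls numbered 0 by DESeq2 and 0 by limma-voom. The list median was 0.16, and 26 of the 28 members had a positive value. The summed level of the list was 2016, 1605 and 1590 CPM in the chronic libraries and 1552 and 1523 CPM in the controls. MKI67, a protein of dividing cells, was at 142, 102 and 92.5 CPM in the chronic libraries and 94.3 and 113 CPM in the controls (adjusted p = 0.726), with groups that overlapped. Among 17 glutamate receptor genes GRIN3A (2.68 ± 0.35) and GRM8 (1.84 ± 0.28) rose, and GRIK2 (-0.58 ± 0.10), GRIN1 (-0.44 ± 0.09) and GRM3 (-0.41 ± 0.09) fell. In this list 2 rose and 0 fell with library 9 kept, against 0 and 0 without control library 8. Among 14 GABA-A receptor and gephyrin genes GABRA5 (-0.57 ± 0.11) fell. Defining markers of microglia and endothelium were near 0, with AIF1, CSF1R and P2RY12 at 0 to 0.286 CPM and PECAM1 and CDH5 at 0 to 0.419 CPM. LYN, a kinase of immune cells, was at 10.6, 12.2 and 10.4 CPM in the chronic libraries and 15.6 and 13.8 CPM in the controls (adjusted p = 0.104).

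**Figure D5:**
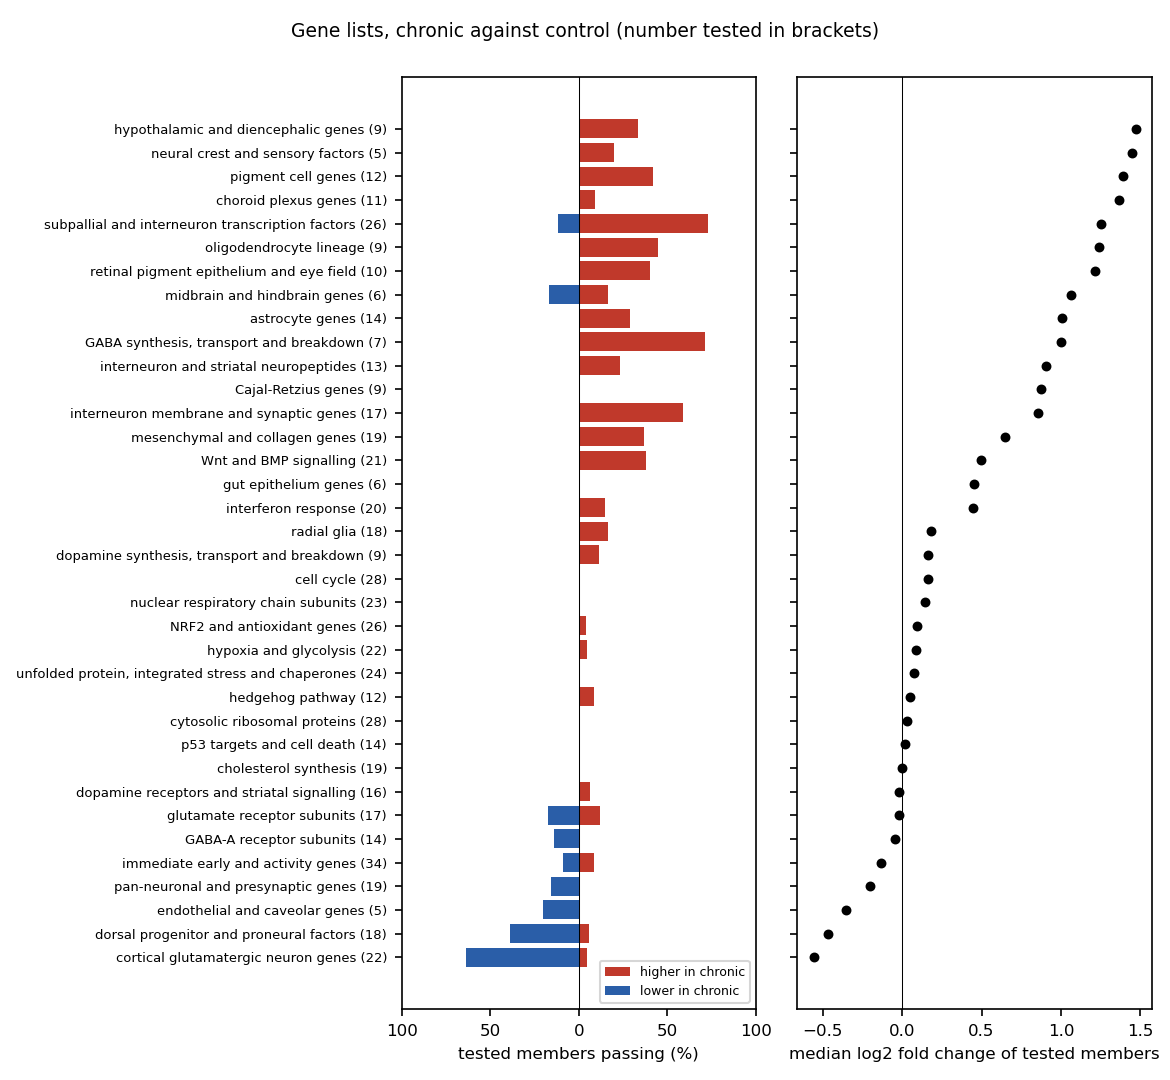
For 36 gene lists with at least 5 tested members, the left panel shows the share of members that passed (% of tested members, red to the right for higher and blue to the left for lower in chronic libraries) and the right panel the median log2 fold change. Subpallial factors and GABA genes have the largest shares of members that rose, and cortical excitatory neuron genes the largest share that fell; cell cycle, ribosomal protein, cholesterol and p53 genes have none.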

How the data were processed

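Bulk RNA was measured in 18 libraries of organoids from 2 lines, of which the 6 libraries of H1 chronic and H1 control, grouped per the labels, are compared here. Per the labels' protocols, libraries were poly(A) selected, strand-specific (dUTP) and paired-end. GRCh38 and hg38 are the builds named by the submitters' processing notes. Which aligner, counter and annotation were used is not stated there or in the labels. Per the file headers, the authors deposited unnormalised read counts for 53853 symbols. Their deposited TPM values, scaled by length, entered only an alternative test, and their comparison tables were not used. No mitochondrially encoded gene is in the count table. Symbols turned into dates (28, holding 0.468% to 0.52% of counts in the 5 libraries) were tested but not named.

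Counts of libraries 1, 2, 3, 7 and 8 were filtered with filterByExpr (minimum count 10), scaled by TMM and tested with the edgeR 4.0.16 quasi-likelihood F test in R 4.3.3, with Benjamini-Hochberg adjustment over 15708 genes and a threshold of 0.05. Standard errors (SE) were taken as the absolute log2 fold change over the square root of F. Levels are TMM-normalised CPM, always in the order of libraries 1, 2, 3, then 7, 8. Library 9 was left out for its depth. A fold against a group with no count uses a floor of 3 counts per library. Intervals for library 9 are exact Poisson intervals (95%) and, like floors, cover counting error only. Counts per gene differed by more than sampling noise between chronic libraries and between controls 7 and 8 (mean chi-square per gene 2.48 to 11.5), so none of these 5 was a copy of another in its group.

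The 41 gene lists, the members named and the tests were chosen with earlier results of these data known, so lists are described by counts and medians and not tested. The rule names the 15 genes per direction with the largest change among those that pass and reach 1 CPM, the 10 per direction of smallest p, up to 4 of smallest p in each list, and a fixed set. It was not followed in full, and further list members, TMM-normalised sums and all families in the closing section were chosen after their values were seen. Alternatives were library 9 kept, fits of 18 and 17 libraries, other scalings and filters, DESeq2 1.42.0, limma 3.58.1 (voom, or log2 TPM with a pseudocount of 1 or 0.1), a test against a fold of 1.2, a threshold of 0.1, and leaving out each library. Gene positions are from GENCODE release 44 (GRCh38), matched by symbol for 204 of the 210 genes named. Tests were first run on simulated data. Some genes that count in the lists are not reported here.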

Additional observations from a re-analysis of the deposited data

How the results depend on the processing

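The total of 769 (470 higher, 299 lower) became 370 with library 9 kept (38 lower), 244 in the fit of 18 libraries (229 and 15) and 280 in the fit of 17 libraries (229 and 51). It was 1957 without a low-count filter (1077 and 880), 278 against a fold of 1.2 (209 and 69), 324 and 329 with limma on log2(TPM + 1) and log2(TPM + 0.1) (241 and 83, 244 and 85), and 1428 at a threshold of 0.1 (825 and 603). Leaving out 1 library gave 144 to 1590 in all, 94 to 812 higher and 50 to 778 lower. The lowest totals belong to the fit without control library 8 and the highest to the fit without control library 7, and without chronic libraries 1, 2 and 3 the totals were 506, 499 and 441. A single control is assumed to vary as the chronic libraries do. DESeq2 size factors (766), upper-quartile scaling (785), a filter at 1 CPM in 2 libraries (751), DESeq2 (951) and limma-voom (700) stayed within 1.5 times. The share of calls that were higher was 61.1% with 5 libraries, 60.2% with DESeq2 size factors, 65.1% with upper-quartile scaling, 89.7% with library 9 kept and 93.9% in the fit of 18 libraries. The number of lists with a positive median was 29, and 26 to 32 under the alternatives.

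Single genes changed sign as follows, as log2 fold changes, and the cause was not tested. With library 9 kept FOS was at 0.0016, GRIK3 was at 0.19, NES was at -0.95, ROBO1 was at 0.024, SYT1 was at 0.041, ZBTB18 was at 0.062 and ZEB2 was at 0.14. In the fit of 18 libraries FOS was at 0.0072 and NES was at -0.45. Under upper-quartile scaling FOS was at 0.016. Under the 1 CPM filter FOS was at 0.0013. On log2(TPM + 1) FOS was at 0.025. On log2(TPM + 0.1) FOS was at 0.028. Without a filter TUBB3 was at -0.0043. Leaving out 1 library, ALDH5A1 ran from -0.069 to 0.12, AXIN2 ran from -0.032 to 0.093, DRD2 ran from -0.13 to 0.83, FOS ran from -0.10 to 0.080, GLI1 ran from -0.13 to 0.30, LEF1 ran from -0.16 to 0.32, MKI67 ran from -0.088 to 0.25, PAX6 ran from -0.028 to 0.26, PDYN ran from -0.14 to 0.19 and TUBB3 ran from -0.088 to 0.10. None of these passed where its sign had changed. No paired analysis was possible because the library numbers of the chronic group are not shared with the control group. With 2 deep controls that differ from each other, and library 9 too shallow for most genes, a change in a gene of a few CPM may be missed.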

Other observations

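Gene families that steer axons and cells, chosen after their values were seen, moved in both directions. Of 31 tested semaphorins, plexins and neuropilins 4 rose and 5 fell, with a median log2 fold change of -0.05, against 2.99% and 1.9% of all genes. Calls of this family, higher and lower, numbered 2 and 2 with library 9 kept and 2 and 3 without control library 8. SEMA5A was at 46.7, 31.1 and 30.9 CPM in the chronic libraries and 11.6 and 7.17 CPM in the controls (log2 fold change 1.96 ± 0.23 SE, adjusted p = 0.00257), and NRP1, a semaphorin receptor, at 23.1, 22.1 and 20.1 CPM in the chronic libraries and 12.3 and 12.6 CPM in the controls (log2 fold change 0.81 ± 0.11 SE, adjusted p = 0.00425). The secreted semaphorins SEMA3A (-0.54 ± 0.07), SEMA3C (-0.87 ± 0.10), SEMA3E (-0.79 ± 0.11) and SEMA3F (-0.36 ± 0.09) fell. Of 22 ephrins and Eph receptors 2 rose, EPHA3 (0.63 ± 0.11) and EPHA4 (0.78 ± 0.11), and 4 fell, EFNA5, EPHA5 (-0.49 ± 0.08), EPHA6 (-0.70 ± 0.13) and EPHA7 (-0.37 ± 0.07). Calls of this family, higher and lower, numbered 1 and 1 with library 9 kept and 0 and 1 without control library 8. The guidance ligand SLIT2 was at 35, 31.1 and 29.7 CPM in the chronic libraries and 16.4 and 14.9 CPM in the controls (log2 fold change 1.03 ± 0.11 SE, adjusted p = 0.00206), while its receptor gene ROBO2 was at 328, 353 and 322 CPM in the chronic libraries and 443 and 551 CPM in the controls (log2 fold change -0.57 ± 0.10 SE, adjusted p = 0.00996). Of 12 tested slits, robos and SLITRK proteins 3 rose and 1 fell, and with library 9 kept 3 rose and 0 fell. In each of these 4 genes with values given, the chronic and control libraries did not overlap. That pattern was seen in 20.3% of tested genes in the higher direction and 19% in the lower. The 4 genes were picked among those that passed, so their separation adds no further evidence. Of 4 teneurins TENM1 (0.45 ± 0.11) and TENM2 (1.10 ± 0.18) rose and TENM3 (-0.48 ± 0.11) and TENM4 (-0.36 ± 0.08) fell. Teneurin calls, higher and lower, numbered 1 and 0 with library 9 kept, and fewer teneurins passed without control library 8 as well.

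Genes of motile cilia, which ependymal and choroid plexus cells carry, were called higher in part, at low levels. Of 37 tested motile cilium and radial spoke genes 6 rose and 0 fell, with a median of 0.51, against 2.99% of all genes that rose. Calls of this family, higher and lower, numbered 8 and 0 with library 9 kept and 1 and 0 without control library 8. RSPH1, a radial spoke protein, was at 2.2, 1.59 and 1.38 CPM in the chronic libraries and 0 and 0.419 CPM in the controls (log2 fold change 2.95 ± 0.69 SE, adjusted p = 0.0377), and CFAP43 at 2.04, 2.54 and 2.81 CPM in the chronic libraries and 0.516 and 1.05 CPM in the controls (log2 fold change 1.63 ± 0.37 SE, adjusted p = 0.0352). Both were at most a few CPM in every library. Among 69 potassium channel subunits 5 rose and 4 fell, and among 18 RGS proteins 4 rose and 1 fell, against 2.99% and 1.9% of all genes. With library 9 kept the potassium channel calls, higher and lower, numbered 4 and 0 and the RGS calls 1 and 1. Fewer members of either family passed without control library 8. RGS4 was at 2.98, 1.45 and 2.47 CPM in the chronic libraries and 0.63 and 0.367 CPM in the controls (log2 fold change 2.22 ± 0.44 SE, adjusted p = 0.0205).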
